A study of Mus musculus with 8 samples.

Results

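Mouse embryonic stem cells (ESCs) treated for 60 h with the MYC inhibitor 10058-F4 were compared with ESCs treated for 60 h with DMSO, its solvent, over 18193 genes on expression arrays. The comparison took the 2 samples titled MYCi and the 3 titled DMSO, which are 5 of the 8 arrays of the series. Each gene was represented by the probe set with the highest mean over all 8 arrays among probe sets with a single gene symbol. Both groups grew free of feeder cells and serum, in N2B27 medium with leukaemia inhibitory factor, the MEK inhibitor PD0325901 and the GSK3 inhibitor CHIR99021, so every control array also carries these agents. The inhibitor was given at 64 μM, and the DMSO groups received the same volume of solvent. A further 3 arrays come from cells that received 60 h of inhibitor and then 48 h without it. These released arrays entered the shared estimate of the spread and are given beside single genes only as values. The labels name no strain or clone of the cells and do not state whether replicates were cultured apart. The p-values therefore describe how far these arrays spread, which may be technical.

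MYC is a transcription factor that binds E-box sequences as a heterodimer with MAX, and 10058-F4 is a small molecule that disturbs this pairing. MYC is known for raising genes of ribosome production, RNA processing, nucleotide synthesis and mitochondrial protein synthesis, and its loss in ESCs and blastocysts has been linked to a reversible slow state that resembles embryonic diapause, the pause of the blastocyst before implantation. Dormant cells in general are known for low biosynthesis, a low rate of division and a shift of fuel use toward fatty acids. The series title places the experiment in this setting, and the comparison shows which transcripts differed between inhibitor and solvent.

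Values are log2 expression levels, and changes are log2 differences, inhibitor minus DMSO, with the moderated standard error from limma. A gene is called higher or lower where limma's adjusted p (Benjamini-Hochberg over all 18193 genes) was under 0.05. By that rule 19.2% of all genes were called higher and 22.3% lower. Every count of a family below is to be read against these shares and against those of genes at a similar level. Calls downward were more frequent among highly expressed genes, as given by bands of level below. For 60.5% of all genes, every inhibitor array lay to 1 side of every DMSO array, with no overlap. Changes of at least 2-fold upward were called for 3.19% of genes and downward for 1.65%. The median change over all genes was -0.06, and -0.11 when each array was centred on its median. Levels of the bacterial Trpn control probe sets, which have no target in mouse RNA, ran from 2.15 to 2.95, and changes of genes close to that range are compressed. Arrays from whole cultures are scaled to 1 distribution, so a change in total RNA is not visible, and fewer cells of a kind cannot be told apart from less RNA per cell. Of 16 measured trophectoderm markers 9 were called higher and 0 lower, and their values stand beside the keratins. Of 10 neural markers 1 was called higher and 3 lower, and their summed level was 46.3 to 47.6 with DMSO and 43.4 and 43.5 with the inhibitor. Of 14 endoderm markers 0 were called higher and 3 lower, and of 11 mesoderm markers 0 and 1. The summed level of 13 fibroblast markers, of which 1 was called lower, was 46.6 to 47.2 with DMSO and 45.5 and 46.5 with the inhibitor. For Gapdh the 3′ control level minus the 5′ one, a measure of RNA integrity, was -0.15 and -0.22 on the inhibitor arrays and -0.13 to -0.11 on the DMSO arrays. The same measure for beta-actin overlapped, at 0.25 and 0.29 on the inhibitor arrays and 0.25 to 0.27 on the DMSO arrays. The part of RNA integrity and of these markers in the results was not tested.

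How large the changes were, and at which levels they lay, differed between the directions. Of the 3497 genes called higher, 1677 changed by less than 0.5 on the log2 scale, 1240 by 0.5 to 1, 487 by 1 to 2, 72 by 2 to 3 and 21 by more than 3. Of the 4060 genes called lower, 2596 changed by less than 0.5, 1164 by 0.5 to 1, 270 by 1 to 2, 27 by 2 to 3 and 3 by more than 3. Large changes were therefore mostly rises, and most falls were shallow. When genes were divided into 10 bands of equal size by their DMSO level, the highest band held 22.5% called higher and 42.6% called lower. Median DMSO levels of lists such as the proteasome (10.43), CCT chaperonin (11.85), initiation factor 3 (11.30), hnRNP proteins (10.84) and karyopherins (9.40) lay in that band. Its shares are the closer comparison for them. Band 9, at levels of 8.35 to 9.38, held 25.5% called higher and 37.7% called lower. Band 6, at levels of 5.65 to 6.62, held 33.1% called higher and 22.2% called lower. In the lowest band, which ends at 2.88, only 3.74% were called higher and 3.68% lower, and the arrays resolve little there. Of 2010 genes whose DMSO mean lay at or below the highest Trpn value, 72 were called higher, and 6 of these by at least 2-fold. Only 2 genes fell at least 2-fold from above that level to at or below it.

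**Figure D1:**
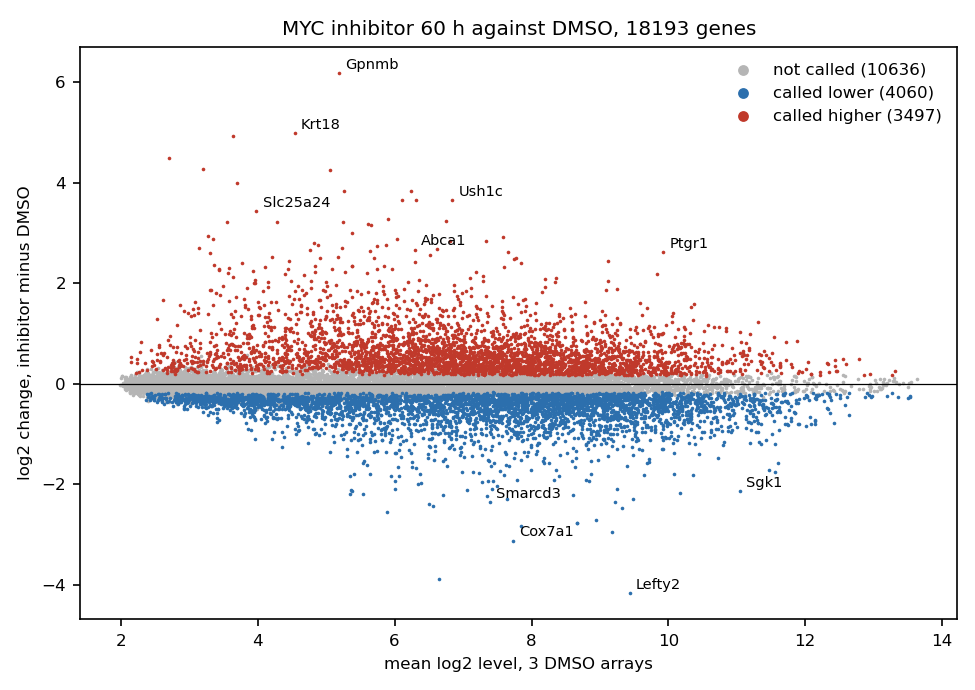
Each point is 1 of 18193 genes, with the mean log2 level of the 3 DMSO arrays on the horizontal axis and the log2 change (inhibitor minus DMSO) on the vertical axis; red points were called higher, blue points lower, grey points not called. The rises reach further from 0 than the falls, and 580 genes rose and 300 fell by at least 2-fold.

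**Figure D2:**
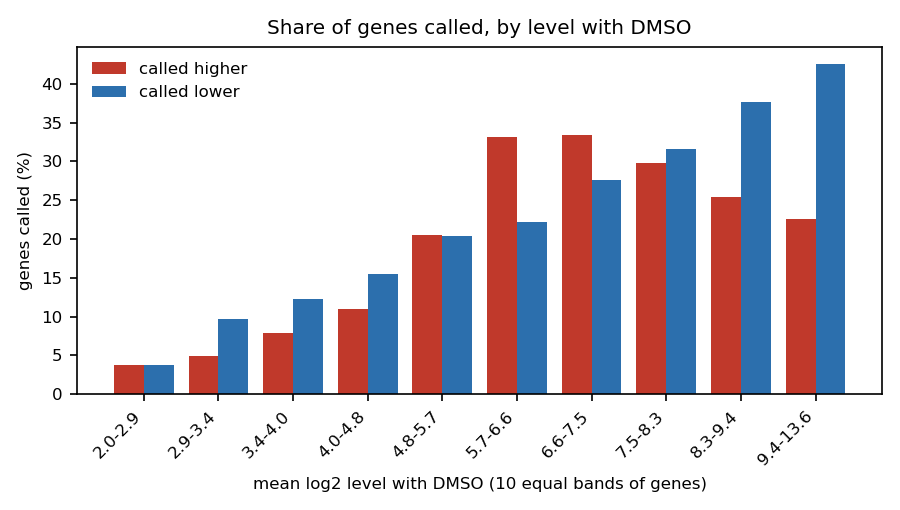
Bars give the percentage of genes called higher (red) and lower (blue) in each of 10 equal bands of genes ordered by mean log2 level with DMSO. Calls downward climb with the level, to 42.6% in the highest band, while calls upward are most frequent in the middle bands.

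Genes known as direct MYC targets moved mostly downward, by small amounts. Of 59 measured members of a list of such targets, 2 were called higher and 41 lower, with a median change of -0.29. The mitotic kinase gene Plk1 fell by 1.14 on the log2 scale, the nucleotide pyrophosphatase gene Dctpp1 by 1.07 and Polr3g, a subunit of RNA polymerase III found in pluripotent cells, by 0.91. Hk2, which encodes a hexokinase of glycolysis, was one of the exceptions and rose (0.35 ± 0.064). The best-known targets moved little. Odc1, the rate-limiting enzyme of polyamine synthesis, fell by 0.29 and the spermidine synthase gene Srm by 0.22, while the nucleolar genes Ncl (-0.15; limma adjusted p = 0.0702) and Npm1 (-0.10; limma adjusted p = 0.194) did not pass. The transcripts of the MYC family and of MAX did not pass the test either. Myc stood at 5.81, 6.04 and 5.91 on the DMSO arrays and at 5.69 and 5.82 on the inhibitor arrays, which overlap. The compound acts on proteins, so these levels do not check the treatment.

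The machinery that makes and processes messenger RNA was lower in most of its parts. RNA polymerase II, the enzyme that transcribes protein-coding genes, had 9 of 11 measured subunit genes called lower and 0 higher, with a median of -0.35. Polr2d, which encodes a subunit of the stalk of the enzyme, stood at 8.71, 8.73 and 8.68 with DMSO and at 7.91 and 7.91 with the inhibitor. It fell by 0.79 ± 0.087 (limma adjusted p = 5.25e-05) and its groups did not overlap. The gene of the largest subunit, Polr2a, differed by -0.21 and missed the threshold (limma adjusted p = 0.0526). RNA polymerase III, which makes transfer RNA, divided: 5 of 9 subunit genes were called lower and 2 higher. Polr3k, a small subunit that acts in termination, fell by 1.47 ± 0.068, from 8.56, 8.74 and 8.64 to 7.17 and 7.19. The large catalytic subunit gene Polr3a rose slightly (0.29). Without inhibitor replicate 2, Polr3a was not called and 3 of the 9 were called lower. The Integrator complex, which cleaves nascent RNA near promoters and at small nuclear RNA genes, had 9 of 15 genes called lower, Ints9 most (-0.75), and 2 higher. Mediator, the bridge between activators and RNA polymerase II, was split, with 8 of 33 called higher (5 without inhibitor replicate 2) and 13 lower. Its largest change was a rise of Med12l (1.80 ± 0.072), a paralogue of the kinase-module gene Med12, whose other probe sets ran down to -0.15.

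Splicing genes were lower to different degrees. Of 21 measured genes for the protein core of the spliceosomal ribonucleoproteins and for the related Lsm proteins, 1 was called higher and 17 lower, and the median was -0.57. Lsm6 encodes a member of the ring that binds U6 RNA and also of the ring that guides decay of capped messenger RNA. It stood at 9.43, 9.56 and 9.44 with DMSO and at 8.02 and 8.11 with the inhibitor, a fall of 1.41 ± 0.069 (2.67-fold; limma adjusted p = 3.06e-07). The released arrays stood at 9.30, 9.30 and 9.38. Snrpg (-0.85) and Snrpd3 (-0.79), both of the Sm ring around spliceosomal RNA, fell as well, and Lsm14a, a processing-body protein outside these rings, was the exception (0.21 ± 0.064). Prpf31, which is needed to assemble the spliceosome's largest particle and is a retinitis pigmentosa gene, fell by 1.09. It belongs to a list of 21 SF3 and Prpf splicing factors that moved less, with 10 called lower, 3 higher (1 without inhibitor replicate 2) and a median of -0.14. Among SR proteins, which mark exons for splicing, 6 of 10 were called lower, Srsf2 (-0.63) and Srsf1 (-0.58) most, and Srsf11 rose (0.31). Of 19 hnRNP genes 10 were called lower and 1 higher, with a median of -0.19.

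RNA decay and export followed the same direction. The RNA exosome, the complex that trims and degrades RNA from its 3′ end, had 9 of 11 genes called lower and 0 higher, with a median of -0.46. Exosc5 fell most (-0.89 ± 0.082), and the catalytic subunit gene Dis3 fell by 0.66. Of 24 nuclear pore genes 14 were called lower and 3 higher, and of 24 karyopherins, the carriers of nuclear transport, 11 were called lower and 2 higher. Kpna2, an importin that is abundant in ESCs, fell by 0.82, and Xpot, which exports transfer RNA, rose (0.65).

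The ribosomes of the mitochondrion and of the cytosol differed in their counts, a difference that was not itself tested. Of 76 measured genes of the mitochondrial ribosome, 1 was called higher and 56 lower, with a median of -0.41. Of 46 genes of the cytosolic ribosome, 2 were called higher and 8 lower, close to or below the share of all genes, with a median of -0.06. The count of 8 was 4 without inhibitor replicate 1, 4 without inhibitor replicate 2 and 16 with a variance trend and robust fitting. Cytosolic ribosomal transcripts had a median DMSO level of 13.04, near the top of the scale. Mrpl34, a protein of the large mitochondrial subunit, stood at 9.19, 9.29 and 9.28 with DMSO and at 8.03 and 7.87 with the inhibitor. It fell by 1.30 ± 0.077 (2.47-fold; limma adjusted p = 9.42e-07), and the 5 arrays did not overlap. The single riser was Mrpl23 (0.44 ± 0.074). Mitochondrial tRNA synthetases stood apart from the mitochondrial ribosome, with 5 of 16 called lower (3 without inhibitor replicate 2) and 2 higher, and a median of -0.04. In the cytosol, initiation factor 3, which prepares the small ribosomal subunit, had 6 of 11 genes called lower and 1 higher, with a median of -0.20. Initiation factor 2 and its exchange factor eIF2B, which deliver the initiator tRNA, had 4 of 8 called lower and 2 higher, with a median of -0.19.

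**Figure D3:**
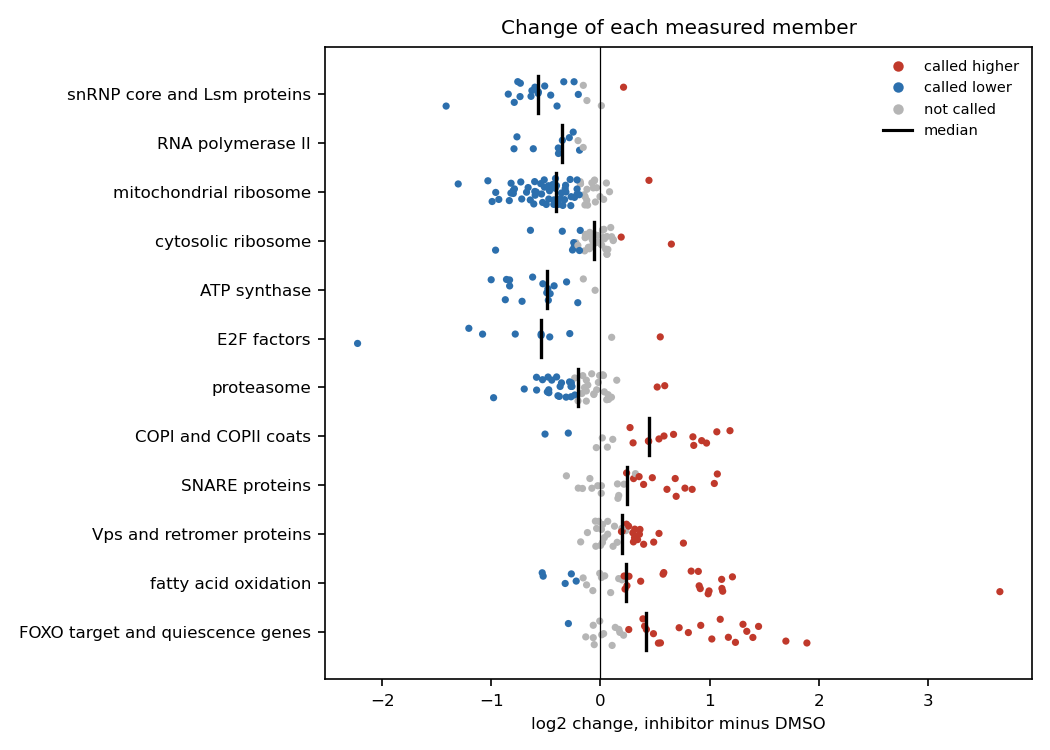
Each point is the log2 change (inhibitor minus DMSO, horizontal axis) of 1 measured gene in 12 families, coloured red where called higher, blue where called lower and grey where not called, with the family median as a black bar. The mitochondrial ribosome lies around -0.41 and the cytosolic ribosome around -0.06, and the coat proteins of vesicles lie mostly to the right of 0.

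The nuclear genes of the respiratory chain and of mitochondrial import were mostly lower, and those of the citric acid cycle were not. ATP synthase, which makes ATP from the proton gradient, had 15 of 17 measured subunit and assembly genes called lower and 0 higher, with a median of -0.49. Atp5k, a membrane subunit, stood at 11.46, 11.56 and 11.51 with DMSO and at 10.54 and 10.48 with the inhibitor (-1.0 ± 0.061). Complex I, the entry point for electrons from NADH, had 23 of 35 genes called lower and 0 higher. In complex III and cytochrome oxidase 19 of 25 were called lower and 2 higher. Uqcrh, the hinge subunit of complex III, fell 3.28-fold, from 11.46, 11.58 and 11.38 to 9.75 and 9.77. Its log2 change was -1.71 ± 0.074, and the released arrays were back at 11.24, 11.22 and 11.33, with no test made of that return. Paralogues of cytochrome oxidase known from heart and muscle went apart: Cox7a1 had the largest fall of the group (-3.12), and Cox6a2 rose 2.5-fold. Of 23 translocase genes, which import proteins into mitochondria, 16 were called lower and 1 higher. Timm21, of the inner membrane translocase, fell by 1.17. Of 21 genes of the citric acid cycle, which feeds the respiratory chain, 6 were called lower and 4 higher (2 without inhibitor replicate 1), with a median of -0.08, close to all genes.

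Mitochondrial genes that handle fatty acids moved the other way. Of 32 measured genes of fatty acid oxidation, 18 were called higher and 5 lower (2 lower without inhibitor replicate 2), with a median of 0.23. The steps represented run along the pathway. Slc25a20, the carrier that brings acylcarnitine into the matrix, rose (1.11 ± 0.062). Cpt2, which frees the fatty acid from carnitine inside the matrix, stood at 6.89, 7.05 and 6.88 with DMSO and at 8.10 and 8.0 with the inhibitor (1.11 ± 0.075). Acadl, a dehydrogenase for long chains, rose 2.31-fold (1.21 ± 0.063), although the other probe set of the gene was near no change (-0.03). Etfa (0.99) and Etfdh (0.90), which pass electrons from these dehydrogenases to ubiquinone, rose; the other probe set of Etfdh was at -0.34. The members called lower included the enoyl-CoA hydratase gene Echs1 (-0.32) and the short-chain dehydrogenase gene Acads (-0.27), neither of which was called without inhibitor replicate 2. Among 44 mitochondrial carriers, 10 were called higher and 8 lower, and 9 and 12 with median centring. Slc25a24, which carries ATP-magnesium across the inner membrane in exchange for phosphate, stood at 4.27, 4.09 and 3.57 with DMSO and at 7.40 and 7.42 with the inhibitor. Its change was 3.43 ± 0.18 (10.8-fold; limma adjusted p = 5.09e-07), and its other probe set rose less (1.38).

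Lipid storage and lipid export also had members that rose strongly. Of 25 measured genes of triglyceride storage and lipolysis 10 were called higher and 2 lower. Plin2, which coats lipid droplets, stood at 9.09, 9.16 and 9.12 with DMSO, at 11.62 and 11.52 with the inhibitor and at 9.37, 9.45 and 9.39 on the released arrays. It rose 5.44-fold (2.44 ± 0.064; limma adjusted p = 1.25e-08). Abhd5, the activator of triglyceride lipase, rose (1.37 ± 0.10), as did the lipase inhibitor gene G0s2 (1.12), while the hormone-sensitive lipase gene Lipe fell by 0.49. Abca1, which exports cholesterol from cells, stood at 6.25, 6.39 and 6.23 with DMSO and at 8.94 and 8.99 with the inhibitor. It rose 6.38-fold (2.67 ± 0.071), on a probe set whose partners ran down to 0.09. Abcg1, another sterol exporter, fell by 0.83. Genes that make fatty acids were not lower as a list: of 19 genes of fatty acid synthesis and desaturation 8 were called higher and 2 lower, with a median of 0.07. The 23 genes of cholesterol synthesis and uptake had 10 called higher and 7 lower (3 lower without inhibitor replicate 2). Of 33 genes of sphingolipid and ganglioside metabolism 14 were called higher and 5 lower (2 lower without inhibitor replicate 2). The largest rises there were lysosomal hydrolases, Hexa (1.12), Neu1 (1.11) and Asah1 (1.05), whereas the ceramide synthase gene Cers4 fell by 1.3.

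Synthesis of nucleotides was lower, and one-carbon metabolism was split. Of 23 measured genes of purine and pyrimidine synthesis 2 were called higher and 19 lower. Ppat, the committed step of purine synthesis, fell by 0.74 (another probe set at 0.02), Adsl, a later enzyme of the same pathway, by 0.94, and Cad, the first steps of pyrimidine synthesis, by 0.58. The muscle-type gene Adssl1 was an exception (1.02 ± 0.13). In serine and one-carbon metabolism 5 of 23 were called higher and 10 lower, with a median of -0.04. Cbs, which directs homocysteine into cysteine synthesis, fell 3.09-fold, from 6.81, 6.78 and 6.71 to 5.02 and 5.26. Aldh1l2, a mitochondrial enzyme that oxidises formyl-tetrahydrofolate, went against it and rose 5.46-fold, from 4.50, 4.46 and 4.40 to 7.0 and 6.80 (2.45 ± 0.087). The released arrays of Aldh1l2 were at 4.46, 4.64 and 4.43, within or close to the DMSO range. In the polyamine list 11 of 18 were called lower and 2 higher, with Dhps (-1.06), which makes hypusine on initiation factor 5A, and the spermine oxidase gene Smox (-1.0) below Odc1.

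Transporters of iron and amino acids included several rises. Of 23 measured iron and haem genes 8 were called higher and 3 lower. Slc40a1, ferroportin, the known iron exporter of animal cells, stood at 4.11, 4.15 and 4.04 with DMSO and at 6.36 and 6.48 with the inhibitor. It rose 4.99-fold (2.32 ± 0.11; limma adjusted p = 2.91e-07), and the released arrays were at 4.37, 4.68 and 4.79, between both groups. The haem oxygenase gene Hmox1 (1.20) and the ferritin heavy chain gene Fth1 (0.50) rose, and Tfrc, the receptor for iron uptake, fell by 0.76. Of 49 amino acid transporters 17 were called higher and 6 lower, although the median was -0.02. Slc7a8 (1.63 ± 0.12), Slc7a11 (1.56 ± 0.096), the cystine importer, and Slc38a1 (1.20 ± 0.063), a glutamine importer, rose. Slc6a15, a carrier of branched-chain amino acids, fell by 1.47. Among zinc and copper transporters 10 of 26 were called higher and 5 lower (1 lower without inhibitor replicate 2), and the zinc importer gene Slc39a4 rose most (1.34 ± 0.087). Of 69 potassium channels only 4 were called higher and 9 lower (5 lower without inhibitor replicate 2, and 16 with median centring), at a median DMSO level of 4.08.

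Vesicle coats had most of their genes called higher, while other parts of membrane traffic had fewer calls. The COPI and COPII coats, which shape vesicles between the endoplasmic reticulum and the Golgi, had 13 of 19 measured genes called higher and 2 lower, with a median of 0.44. Sec23a, of the inner COPII coat, stood at 9.22, 9.35 and 9.33 with DMSO and at 10.48 and 10.49 with the inhibitor, and it was at 9.20, 9.25 and 9.19 on the released arrays. It rose 2.28-fold (1.19 ± 0.064; limma adjusted p = 5.47e-07). Copa, the largest COPI subunit, rose from 9.08, 9.11 and 9.20 to 10.04 and 10.17 (0.97 ± 0.067). Its partners Copb2 (0.93) and Copb1 (0.85) rose by similar amounts, and the zeta subunit genes Copz1 (-0.29) and Copz2 (-0.51) fell, calls that were lost without inhibitor replicate 2 and without inhibitor replicate 1, respectively. In each of these genes except Copz1 and Copz2 the inhibitor arrays lay above all DMSO arrays.

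Genes of vesicle fusion and sorting had fewer and smaller calls. Of 25 syntaxin, VAMP and SNAP genes, which drive membrane fusion, 12 were called higher and 0 lower, Stx2 (1.07 ± 0.11) and Vamp2 (1.04 ± 0.074) most. The groups lay apart for 18 of these 25, beside 60.5% of all genes. Of 34 Vps genes, which sort cargo at endosomes and tether vesicles, 15 were called higher and 0 lower, with a median of 0.19, and 20 of the 34 did not overlap. Vps35, the retromer core, rose by little (0.40 ± 0.078). Of 30 sorting nexins 12 were called higher and 2 lower. In the exocyst, which tethers vesicles at the plasma membrane, 5 of 8 were called higher and 0 lower, but 2 of 8 were called higher without inhibitor replicate 1 and 3 without inhibitor replicate 2. In ESCRT-III, which cuts membranes, 5 of 10 were called higher and 1 lower (3 higher without inhibitor replicate 1), with Chmp2b ahead (0.96 ± 0.069). Rab GTPases, the address labels of vesicles, were mixed: 17 of 59 were called higher and 13 lower, with a median of -0.04, Rab31 (1.69) and Rab17 (1.47) at the top and Rab38 at the bottom (-1.36).

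**Figure D4:**
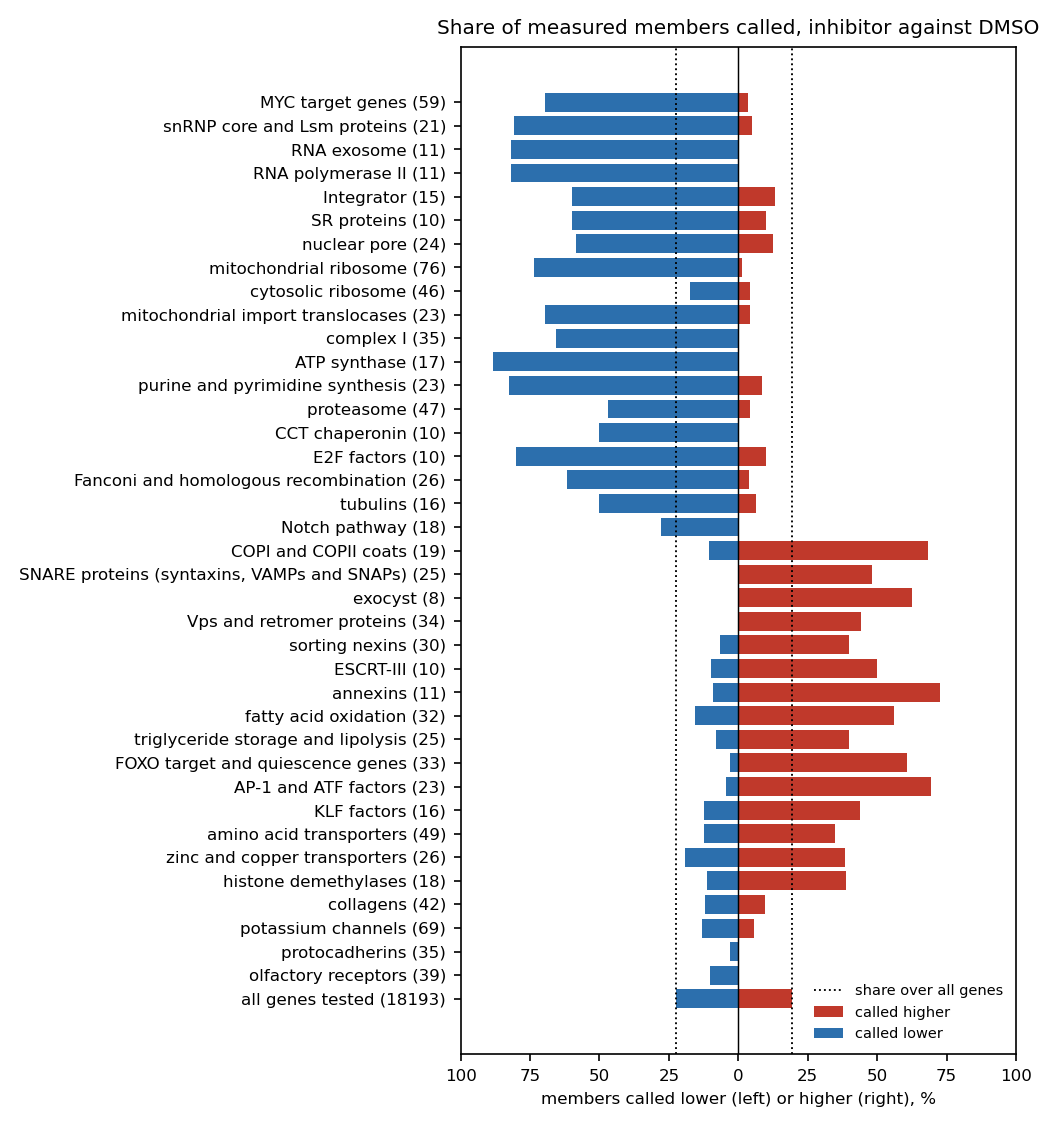
Bars give the percentage of measured genes of each family called higher (right, red) and called lower (left, blue), with the number of measured genes in brackets and dotted lines at the shares over all 18193 genes (19.2% higher, 22.3% lower). Families of RNA and mitochondrial machinery reach left of the dotted line, and vesicle coats, annexins, AP-1 and FOXO-related genes reach right of it.

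Genes of protein folding, of the proteasome and of ubiquitin E2 enzymes were lower more often than higher, and other families of protein turnover were mixed. The proteasome, which degrades tagged proteins, had 22 of 47 genes called lower and 2 higher, with a median of -0.21. The immunoproteasome subunit gene Psmb10 fell most (-0.98) and the activator gene Psme4 rose (0.59 ± 0.065). The CCT chaperonin, which folds actin and tubulin, had 5 of 10 called lower (2 without inhibitor replicate 2) and 0 higher. Prefoldin, which hands proteins to it, had 4 of 6 called lower and 0 higher. Tubulins, the clients of both, had 8 of 16 called lower and 1 higher, and Tuba1a fell by 0.79. Of 33 ubiquitin E2 enzymes 12 were called lower (36.4%) and 3 higher (9.09%), with a median of -0.14. Their median DMSO level of 8.675 lay in band 9, which held 37.7% called lower and 25.5% called higher. The share called lower was thus no larger than among genes at that level. Among F-box proteins, which choose the targets of a ubiquitin ligase, 16 of 67 were called higher and 13 lower, and 15 and 17 with median centring. TRIM proteins, another ligase family, had 18 of 58 called higher and 11 lower. Ubiquitin-specific proteases, which remove ubiquitin, had 14 of 51 called higher and 11 lower. Of 18 cathepsins, the proteases of lysosomes, 5 were called higher, each by at least 2-fold, and 2 lower. The median was 0.03, and -0.02 with median centring. Many cathepsins were weakly expressed: the median DMSO level was 4.35, and 4 of the 18 lay at or below the highest Trpn value.

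Genes linked to quiescence and to FOXO factors, the transcription factors held in check by insulin signalling, were mostly higher. Of 33 measured members of the list 20 were called higher and 1 lower, with a median of 0.42. Foxo3 itself stood at 7.85, 7.93 and 7.93 with DMSO, at 8.94 and 8.90 with the inhibitor and at 8.34, 8.32 and 8.30 on the released arrays. It rose 2.03-fold (1.02 ± 0.060; limma adjusted p = 9.27e-07), with another of its probe sets near no change (0.01). Foxo1 rose less (0.53; another probe set at -0.14) and Foxo4 was the one member called lower (-0.29). The insulin receptor gene Insr (1.24 ± 0.088; another probe set at -0.07), the antiproliferative gene Btg1 (1.17 ± 0.071) and Bcl6, a repressor (1.34 ± 0.13), rose. Cited2, a cofactor with a known part in the quiescence of blood stem cells, stood at 8.38, 8.47 and 8.33 with DMSO and at 9.78 and 9.80 with the inhibitor (1.40 ± 0.070). Bnip3, a mitophagy receptor, rose from 6.59, 6.85 and 6.65 to 8.14 and 8.15, and its released arrays stayed near that level at 8.08, 8.10 and 8.05. Cdkn1b, the cell cycle inhibitor p27 (0.26), and the thioredoxin-binding gene Txnip (0.49) rose by little. In the mTORC1 and amino acid sensing list 12 of 34 were called higher and 6 lower, with the mTORC1 inhibitors Ddit4 (1.89) and Ddit4l (1.67) ahead. Rragd (0.99), a GTPase of the amino acid sensor, and its partner gene Fnip1 (0.94) followed, while Castor1, an arginine sensor, fell by 0.79.

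Transcription factor families went their own ways. Of 10 E2F family genes and partners, which drive entry into S phase, 8 were called lower and 1 higher, with a median of -0.54. E2f8, a repressor of the family that is itself made in S phase, stood at 7.27, 7.29 and 7.49 with DMSO and at 5.19 and 5.05 with the inhibitor. It fell 4.68-fold (-2.23 ± 0.11), and E2f6, a repressor outside this cycle, rose (0.55 ± 0.063; its other probe set was at -0.11). Of 23 AP-1, ATF and C/EBP genes 16 were called higher and 1 lower, Junb (-0.59), with a median of 0.91. Of 16 KLF genes 7 were called higher and 2 lower, Klf6 most (3.25-fold). Of 19 SOX genes 3 were called higher and 7 lower (4 lower without inhibitor replicate 2). Sox15, which pairs with OCT4 in ESCs, fell 3.58-fold, from 5.90, 5.99 and 5.92 to 4.07 and 4.13, and Sox6 rose (1.28). The 336 zinc finger genes named Zfp were called higher at 19.3% and lower at 25.9%, close to the shares of all genes. Pou5f1, Sox2 and Nanog were not called, and of 14 measured pluripotency markers 4 were called higher and 7 lower.

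Chromatin genes differed between lists, and some lists were split between subunits. Of 24 SMARC and BAF genes 3 were called higher and 11 lower. Smarcd3, a subunit known from heart and neural progenitors, stood at 7.37, 7.42 and 7.41 with DMSO and at 5.21 and 4.88 with the inhibitor, a 5.11-fold fall (-2.35 ± 0.095; limma adjusted p = 1.02e-07). The alternative ATPases diverged: Smarca4, the one used in ESCs, fell by 0.63, and Smarca2 rose from 5.87, 5.70 and 5.91 to 7.65 and 7.69 (1.84 ± 0.083). Polycomb genes were split, with 10 of 31 called higher and 10 lower (9 and 12 with median centring), Phc1 (-0.91) and Ezh2 (-0.43) among the falls and Scmh1 (1.26) and Bmi1 (0.73) among the rises. Of 18 histone demethylase genes 7 were called higher and 2 lower, Kdm7a (1.35) and Kdm6b (1.19) most. Setd7, a lysine methyltransferase, rose 6.35-fold, from 4.65, 4.85 and 4.79 to 7.48 and 7.38, on 1 of its 2 probe sets, while the other was at -0.21. Dnmt3l, the cofactor of de novo DNA methylation, rose from 5.39, 5.45 and 5.27 to 7.0 and 7.18 and stood at 7.26, 7.09 and 7.07 on the released arrays, and Uhrf1, the partner of maintenance methylation, fell by 1.19. DNA repair genes tied to replication were lower: in the Fanconi and homologous recombination list 16 of 26 were called lower and 1 higher, with Brca1 at -1.11 and Bard1 at -1.13.

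Among signalling genes single members moved more than families. Of 18 Notch pathway genes 0 were called higher and 5 lower (3 without DMSO replicate 1). Jag1, a Notch ligand, stood at 8.54, 8.44 and 8.59 with DMSO and at 7.08 and 7.20 with the inhibitor (-1.38 ± 0.074), and the receptor gene Notch3 fell by 0.69. In the TGF-beta family 9 of 39 were called higher and 6 lower, with 2 at least 2-fold higher and 2 at least 2-fold lower. Its lowest change, -4.16, was also the lowest over all genes tested. The activin subunit gene Inhbe rose 5.3-fold (2.40 ± 0.15), from 3.55, 3.97 and 3.77, near the control range, to 6.06 and 6.28, and the receptor gene Tgfbr2 rose (1.67 ± 0.11). With median centring the balance of that family turned to 7 higher and 11 lower. Dual-specificity phosphatases, which switch off MAP kinases, had 9 of 24 called higher, Dusp3 (1.44) and Dusp5 (1.37) at the top, and 5 lower (8 without DMSO replicate 1), Dusp6 at the bottom (-0.99). Eras, an ESC-specific Ras gene, fell by 1.99, and Sgk1, a kinase related to AKT, was the most abundant of the 40 largest falls. Sgk1 stood at 11.01, 11.03 and 11.09 with DMSO, at 8.88 and 8.94 with the inhibitor and at 10.93 or above on the released arrays (-2.13 ± 0.062; limma adjusted p = 1.78e-08).

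Surface and cytoskeletal genes held many of the largest single rises, and their families differed. Annexins, which bind membranes in a calcium-dependent way, had 8 of 11 called higher and 1 lower and a median of 0.49. Anxa2 stood at 4.80, 4.96 and 4.68 with DMSO and at 7.62 and 7.60 with the inhibitor (2.79 ± 0.096; another probe set at -0.13), and Anxa5 rose by 1.76. Of 48 keratins 6 were called higher and 3 lower, and with median centring 5 and 7. The 3 lower became 5 without DMSO replicate 1, 1 without inhibitor replicate 1 and 0 without inhibitor replicate 2. Krt8, the partner of Krt18 in simple epithelia, rose 9.43-fold, from 6.78, 6.85 and 6.64 to 10.09 and 9.90, and was at 6.81, 6.87 and 6.72 on the released arrays. Of 24 claudins, the seal of tight junctions, 3 were called higher and 2 lower (3 and 5 with median centring), Cldn4 (1.61) and Cldn7 (1.41) most. Alongside these, 9 of 16 trophectoderm markers were called higher and 0 lower, and their summed level was 84.2 to 85.3 on the DMSO arrays and 102.5 and 104.1 on the inhibitor arrays. Besides keratins the list holds the T-box factor Eomes, which rose from 7.21, 7.26 and 7.11 to 9.37 and 9.47. Cdx2, a defining factor of trophectoderm, was not called (-0.20). The part of these markers in the keratin, claudin and annexin results was not tested. Connexins, which form gap junctions, had 5 of 14 called lower and 1 higher, with a median of -0.14. Eph receptors and ephrins, which signal between touching cells, had 9 of 21 called lower (5 without inhibitor replicate 1) and 5 higher (3 without inhibitor replicate 2). Kinesins, the motors of microtubules, had 15 of 37 called lower and 10 higher. Of 35 protocadherins 0 were called higher and 1 lower, of 42 collagens 4 and 5, and of 29 integrins 5 and 4, which median centring turned to 4 and 5. The median DMSO level of the protocadherins, 2.78, lay inside the Trpn control range. With DMSO 21 of the 35 stood at or below its highest value, so the arrays resolve little there. Median DMSO levels were 3.94 for collagens and 4.87 for integrins, with 6 and 5 members at or below that value.

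Single genes with large rises beyond these families were spread over many functions. Ush1c, a scaffold of microvilli and of the inner ear, stood at 6.81, 6.91 and 6.79 with DMSO, at 10.64 and 10.36 with the inhibitor and at 6.54, 6.02 and 6.30 on the released arrays. It rose 12.6-fold (3.66 ± 0.14; limma adjusted p = 7.07e-08). Msln, the mesothelial surface protein mesothelin, rose from 4.44, 4.32 and 4.07 to 7.54 and 7.47. F3, tissue factor, the starter of blood coagulation, rose 9.36-fold from 3.61, 3.59 and 3.43 to 6.74 and 6.80, and the urokinase receptor gene Plaur rose by 2.88. The calpain gene Capn2, a calcium-activated protease, rose 8.02-fold (3.00 ± 0.14), and the diacylglycerol kinase gene Dgkh 9.75-fold (3.28 ± 0.072). Mbnl2, a splicing regulator that favours differentiated isoforms, rose by 2.84 ± 0.086, with probe sets from -0.11 to 3.24. Ptgr1, which reduces reactive aldehydes, was already high at 9.94, 9.96 and 9.88 and reached 12.59 and 12.52 (2.63 ± 0.062). In each of these genes the inhibitor arrays lay above every DMSO array.

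Other large falls included genes of signalling, the cytoskeleton, cell junctions and the cell cycle. Marcksl1, an actin-linked substrate of protein kinase C, stood at 10.15, 10.11 and 10.23 with DMSO and at 7.99 on both inhibitor arrays. It fell 4.5-fold (-2.17 ± 0.062), and all 4 of its probe sets lay between -2.29 and -1.91. Cdk6, which with D-type cyclins starts the cell cycle, fell from 7.53, 7.40 and 7.58 to 5.53 and 5.40, and its released arrays were at 7.59, 7.44 and 7.57. Gja1, connexin 43, fell by 1.94 ± 0.080, with 6 probe sets from -2.15 to -0.95. Khdc3, of the maternal effect complex and active in ESCs, fell by 2.09, and Trh, thyrotropin-releasing hormone, by 2.29. Ly6e, a surface protein, fell by 2.30 on one probe set and by 0.81 on the other. The lysophosphatidic acid receptor gene Lpar4 fell by 2.18, to 3.54 and 3.16, near the control range.

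**Figure D5:**
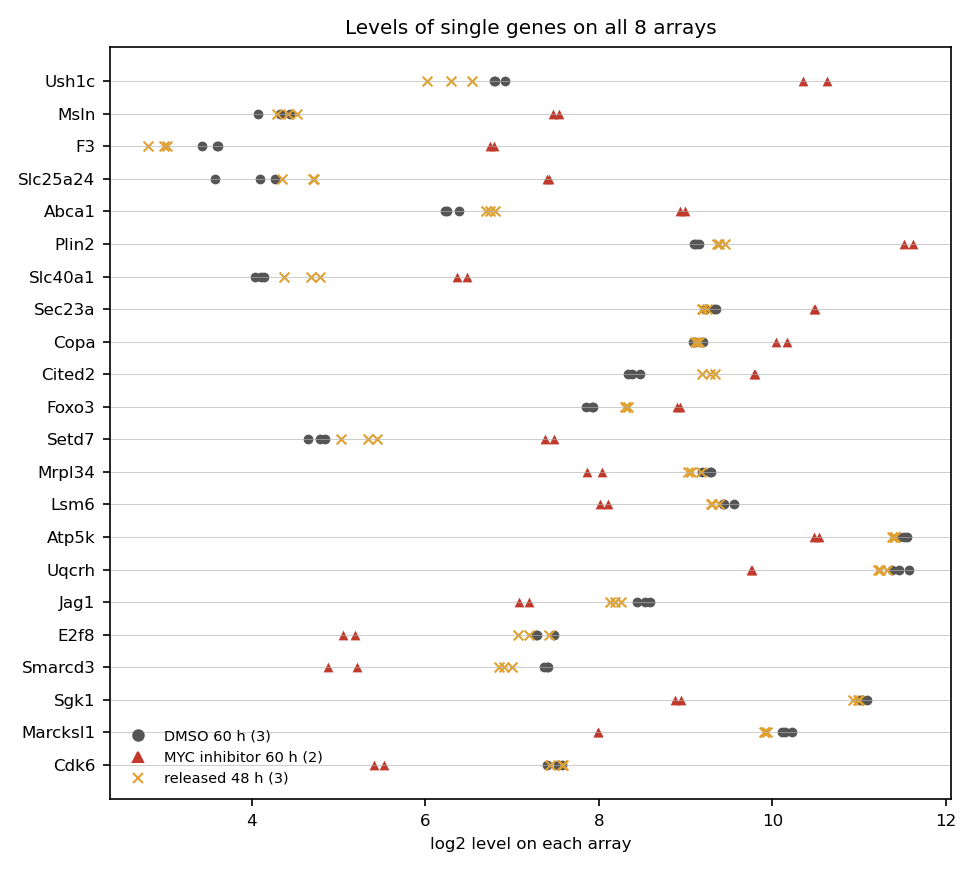
Points give the log2 level (horizontal axis) of 22 genes on every array, with grey circles for the 3 DMSO arrays, red triangles for the 2 inhibitor arrays and crosses for the 3 released arrays. In all 22 genes the triangles lie apart from the circles, and in Cited2, Foxo3 and Setd7, among others, the crosses lie between both.

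The promoter sequences bear on the same lists, since MYC-MAX, E2F and AP-1 factors read short motifs. RefSeq promoter windows from 250 bases before to 50 bases after the start of a gene (assembly GRCm38.p6) were matched by gene ID, and both strands were searched. A window was found for 2826 of the 3497 genes called higher and for 3295 of the 4060 called lower. The E-box CACGTG, which reads the same on both strands, stood in the window of 8.09% of all RefSeq genes, of 13.6% of genes called higher and of 10.4% of genes called lower. Among genes above the median level the shares were 14.7% for those called higher, 11.8% for those called lower and 12.01% for those not called. In the MYC target list the motif was found in 15 of 53 genes with a window (28.3%), and in the mitochondrial ribosome in 5 of 67 (7.46%). Shares near that of the MYC list also occurred elsewhere, in lists that mostly rose and lists that mostly fell. They were 4 of 15 for ATP synthase, 5 of 20 for AP-1, ATF and C/EBP genes, 2 of 8 for E2F genes and 6 of 29 for the FOXO list. In RNA polymerase II it was 1 of 9 and in fatty acid oxidation 0 of 30. A match describes the letters only and says nothing of binding or of which factor would read them.

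The 8 windows below show the E-box in genes of both directions, with the motif in capitals. The first 4 rose and encode 3 lysosomal proteases and a tethering protein (Vps33a, whose other probe set was at -0.17), and the last 4 fell and belong to the MYC target list. The call of Vps33a was lost with median centring. In each direction the genes shown had the largest changes among those with the motif before the start. The risers came from membrane traffic lists and cathepsins. There the motif was found in 1 of 18 coat genes with a window and in 2 of 21 syntaxin, VAMP and SNAP genes.
Ctsd (1.52), chr7:142387895-142387950, minus strand: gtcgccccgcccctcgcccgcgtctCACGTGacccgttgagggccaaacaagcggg
Ctsl (1.23), chr13:64370726-64370770, minus strand: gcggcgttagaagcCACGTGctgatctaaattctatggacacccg
Ctsa (1.09), chr2:164833736-164833772, plus strand: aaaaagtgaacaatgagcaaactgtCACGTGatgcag
Vps33a (0.30), chr5:123573016-123573052, minus strand: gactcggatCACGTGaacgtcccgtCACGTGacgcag
Exosc5 (-0.89), chr7:25659084-25659139, plus strand: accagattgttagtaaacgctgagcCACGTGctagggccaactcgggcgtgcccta
Ldha (-0.86), chr7:46845731-46845786, plus strand: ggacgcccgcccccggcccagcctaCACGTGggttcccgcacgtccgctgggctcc
Imp4 (-0.68), chr1:34439683-34439738, plus strand: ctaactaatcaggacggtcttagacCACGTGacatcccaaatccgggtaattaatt
Cdk4 (-0.42), chr10:127063499-127063534, plus strand: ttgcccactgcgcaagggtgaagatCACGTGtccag

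In the Vps33a window the hexamer occurs more than once. Ctsd, which encodes cathepsin D, rose from 10.32, 10.41 and 10.26 to 11.92 and 11.79. Ldha, lactate dehydrogenase A, fell from 9.65, 9.74 and 9.63 to 8.84 and 8.79.

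Motifs of E2F and AP-1 factors were distributed differently. The E2F form TTCCCGC was found in 5.29% of all RefSeq genes, in 8.0% of genes called higher and in 11.02% of genes called lower, and the form TTGGCGC in 2.85%, 4.28% and 6.43%. Among genes above the median level TTCCCGC stood at 7.90% of those called higher, 12.95% of those called lower and 10.1% of those not called. The AP-1 motif TGACTCA was found in 5.95% of all RefSeq genes, in 5.56% of genes called higher and in 3.70% of those called lower. Above the median level its shares were 5.28% for those called higher, 3.12% for those called lower and 3.73% for those not called. The following windows come from the 40 largest falls (E2F form) and the 40 largest rises (AP-1), with the motif or its reverse complement in capitals. Among the 40 largest falls only Map2 and Cdc6 had the E2F form wholly before the start, with the same chromosome left out as above. The rises shown are the largest with the AP-1 motif in that position, again outside that chromosome.
Map2 (-2.13), chr1:66175209-66175265, plus strand: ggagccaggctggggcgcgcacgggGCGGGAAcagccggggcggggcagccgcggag
Cdc6 (-2.08), chr11:98907988-98908044, plus strand: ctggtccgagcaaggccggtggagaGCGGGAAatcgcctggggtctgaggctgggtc
F3 (3.23), chr3:121723377-121723433, plus strand: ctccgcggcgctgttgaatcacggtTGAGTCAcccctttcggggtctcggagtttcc
Capn2 (3.00), chr1:182517762-182517818, minus strand: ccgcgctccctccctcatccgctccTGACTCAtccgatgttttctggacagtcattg
Srxn1 (2.92), chr2:152105454-152105510, plus strand: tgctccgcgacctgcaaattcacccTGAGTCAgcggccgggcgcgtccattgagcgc
Cdc6, which licenses origins of replication, is a textbook E2F target. Map2, the microtubule protein of dendrites, fell from 5.42, 5.37 and 5.32 to 3.21 and 3.26. F3, Capn2 and the sulfiredoxin gene Srxn1 rose in arrays in which 16 of 23 AP-1, ATF and C/EBP genes were called higher; the link between these was not tested.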

How the data were processed

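RNA from 8 ESC samples was hybridised to Affymetrix arrays, and the series' table of values for 45101 probe sets was used. The deposited values are log2 expression levels; the submitters' processing notes name oligo 1.32.0, RMA (background correction, quantile normalization and probe summary) and limma 3.2.15. The values were used with no further normalization. Probe sets were named through the platform annotation: 34945 had a single gene symbol, 932 several, 9160 none and 64 were controls. limma 3.58.1 in R 4.3.3 was fitted to all 8 arrays with a mean per group, and the MYC inhibitor group was tested against DMSO, two-sided, with Benjamini-Hochberg adjustment over 18193 genes and a threshold of 0.05. Families were described by counts and medians, with no test of a list. Tables were read with Python 3.11.15 and pandas 2.3.3. The fit was tested on simulated data.

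The comparison, the lists and the motifs were chosen with earlier results of these data known, and family patterns were corrected after counts were seen, to drop symbols that share a stem but not the family. Candidates for naming were taken by size, with up to 4 called members per family in each direction. They also held the 40 largest rises and falls without overlap between groups, all members of lists of up to 12, and a few fixed names. Not all candidates are named. The genes with the highest (6.19) and lowest (-4.16) changes are not named in the text. Nor are those with the highest changes among fatty acid oxidation (3.66), annexin (3.99) and AP-1, ATF and C/EBP genes (3.84). Other members and well-known genes were named after their values were seen. Arrays have no read depth, and their number limits the precision. Promoter windows are RefSeq's and do not cover all genes; lists with a window for under 80% of members were not compared.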

Additional observations from a re-analysis of the deposited data

How the results depend on the processing

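The count of 7557 called genes ranged from 5931 to 7446 when each array was left out in turn, with 2857 to 3461 higher and 2945 to 3985 lower. Without inhibitor replicate 2 the balance turned, with 2986 higher and 2945 lower, and at adjusted p under 0.01 it was 2770 higher and 2749 lower. Requiring at least 2-fold left 880 genes, 580 higher and 300 lower. Testing every probe set gave 13040 calls, 6103 higher and 6937 lower. Of 8565 genes with a called probe set, 339 had probe sets called in opposite directions. Median centring gave 3169 higher and 5138 lower, so 38.2% of calls were rises in place of 46.3%. With the replicate number as a block 6826 genes were called, 3237 higher and 3589 lower; samples with the same number did not deviate together (r of -0.03 and -0.05 between DMSO and inhibitor arrays), so the numbers were not taken as pairs. For single genes the setting with every probe set kept the probe set of the main fit. It could therefore not show a disagreement between probe sets of a gene. Of 158 called genes named in the text, 149 kept their call under every alternative other than the 2-fold limit, and 0 turned direction.
The other 9 were small changes (Acads, Cdkn1b, Copz1, Copz2, Echs1, Lsm14a, Polr3a, Srm and Vps33a), each lost when at least 1 array was left out.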
